A study of Mus musculus with 6 samples.

Results

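Expression of the replication-dependent histone genes was examined in FAPs, short for fibro/adipogenic progenitors, which are stromal cells of muscle able to form fibroblasts and fat cells. The genes were taken as the probe sets annotated to exactly 1 symbol beginning with H2ac, H2bc, H3c or H4c and a digit. They numbered 22 of the 19938 genes with a probe set of their own, namely 4 genes of histone H2A, 9 of H2B, 3 of H3 and 6 of H4. Where a gene has several probe sets, its probe set is chosen by the highest mean level over all arrays, a choice that fell away here because each of the 22 genes has 1. The members were thus picked by symbol, and no difference between groups entered the choice of a probe set. The family itself was chosen with earlier results of these data known, so counts over it are descriptions and not independent support. The family as annotated here is larger, since 57 of its genes are named on some probe set and 35 of those have none of their own.

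All animals were male C57Bl/6 wild-type mice aged 8 to 12 weeks whose tibialis anterior muscles had been injured with 30 µL of 50% glycerol. After 3 days the muscle received a vivo-morpholino (VMO), an antisense oligomer modified to enter cells in vivo, which covers a stretch of RNA, and FAPs were isolated 2 days later. The 3 groups received pA-VMO (VMOs against polyadenylation sites), 5'ss-VMO (a VMO against a 5' splice site) or control VMO, and the series concerns intronic polyadenylation of the receptor gene Pdgfra. Every group, the control included, was thus injured and injected with an oligomer, and no uninjured or uninjected group is described here. Each group had 2 arrays, each of cells pooled from 4 mice. The oligomers were given to the whole muscle, so cells other than FAPs met them as well.

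Histones are the proteins that package DNA into nucleosomes, whose core holds histones H2A, H2B, H3 and H4. The replication-dependent histone genes lie in clusters and are transcribed mainly during S phase, when newly copied DNA must be packaged. Their main messenger RNAs end in a stem-loop bound by SLBP in place of a poly(A) tail, and they are degraded when DNA synthesis stops. Genes of one histone class encode nearly identical proteins and have similar coding sequences. A probe set placed on such a gene may therefore also read RNA of its paralogs, and levels of single members are uncertain to that extent.

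Of the 22 genes, 18 lie on chromosome 13 and 4 on chromosome 3 (H2bc18, H2bc21, H3c15 and H4c14) in the RefSeq annotation of GRCm38.p6. A promoter window of 250 bases before the RefSeq gene start was at hand for 18 of them. On either strand, CCAAT was found in 14 of the 18 windows (77.8%), against 33.8% of 32851 windows of all genes. TATAAA was found in 11 (61.1%), against 12.4%. ATTTGCAT, the octamer read by POU-domain factors such as OCT1, was found in 8 (44.4%), against 1.6%. The octamer was in 5 of 7 H2B windows and 3 of 4 H2A windows, and in 0 of 2 H3 and 0 of 5 H4 windows. These are counts of windows and not of separate sites. The windows of H2ac1 and H2bc1 overlap and hold the same octamer, as do those of H2ac8 and H2bc8. CCAAT and TATAAA matches in that shared DNA are also counted in both windows. No match of a motif overlapped a match of another, and a match shows only that these letters are present.

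Windows are printed for the tested member of each class that has a window and the largest difference from control VMO in either comparison, and for H2bc14, so that the motifs can be seen beside the values given further on. The capitals mark the 3 motifs or their reverse complements, and the sequences are from RefSeq (GRCm38.p6), read 5′ to 3′ on the strand of the gene.
H2bc14, chr13:21721794-21722043, plus strand: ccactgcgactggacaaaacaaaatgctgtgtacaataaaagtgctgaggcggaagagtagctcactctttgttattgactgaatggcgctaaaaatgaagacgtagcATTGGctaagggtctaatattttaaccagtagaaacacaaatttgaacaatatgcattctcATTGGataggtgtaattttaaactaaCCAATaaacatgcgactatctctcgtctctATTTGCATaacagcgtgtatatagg
H2bc18, chr3:96269450-96269699, plus strand: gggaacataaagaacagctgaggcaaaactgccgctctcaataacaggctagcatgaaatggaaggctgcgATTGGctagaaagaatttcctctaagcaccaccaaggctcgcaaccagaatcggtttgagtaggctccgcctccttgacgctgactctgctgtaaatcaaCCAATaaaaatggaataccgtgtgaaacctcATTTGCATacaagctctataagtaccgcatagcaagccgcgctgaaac
H2ac4, chr13:23750838-23751087, plus strand: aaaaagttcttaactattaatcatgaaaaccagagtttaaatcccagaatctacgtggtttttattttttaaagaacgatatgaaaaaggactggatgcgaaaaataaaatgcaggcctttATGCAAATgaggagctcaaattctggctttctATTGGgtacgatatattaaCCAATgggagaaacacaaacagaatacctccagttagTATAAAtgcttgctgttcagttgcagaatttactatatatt
H3c4, chr13:23575513-23575762, plus strand: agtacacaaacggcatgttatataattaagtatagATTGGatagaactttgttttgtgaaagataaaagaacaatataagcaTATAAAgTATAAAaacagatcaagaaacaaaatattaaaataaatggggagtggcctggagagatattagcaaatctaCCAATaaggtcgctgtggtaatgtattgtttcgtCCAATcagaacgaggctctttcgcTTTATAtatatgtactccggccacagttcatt
H4c6, chr13:23551669-23551918, minus strand: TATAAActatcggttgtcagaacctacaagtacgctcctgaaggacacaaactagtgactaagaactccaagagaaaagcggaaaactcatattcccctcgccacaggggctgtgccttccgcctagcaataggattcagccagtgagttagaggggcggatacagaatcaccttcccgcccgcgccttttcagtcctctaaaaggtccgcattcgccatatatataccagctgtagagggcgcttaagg
In the H2B genes H2bc14 and H2bc18 the octamer lies 25 and 48 bases before the gene start, and CCAAT lies farther out. In the H2A gene H2ac4 the octamer lies 129 bases before the start. The H3c4 window has CCAAT close to the start and also TATAAA, but no octamer, and the H4c6 window has TATAAA at its far end alone. Among the members, H2ac1 and H2bc1 are transcribed away from each other from starts 281 bases apart, and H2ac8 and H2bc8 from starts 180 bases apart, so these pairs share upstream DNA.

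Values are log2 levels, and a difference is a difference of group means on that scale. Correlations between arrays over all probe sets were 0.990 to 0.994. Genes with a mean below a log2 level of 5.21 were not tested, which left 14953 genes, of which 17 were histone genes of the family. The 5 untested members were H2ac8, H2bc21, H2bc22, H3c7 and H3c15. The nearest member above the limit was H2bc8, with a mean of 5.36 over all arrays, and the nearest below was H2bc21, with 5.06. The probe set of Pdgfra read 11.29 and 11.32 in pA-VMO, 11.31 and 11.29 in 5'ss-VMO and 11.37 and 11.24 in control VMO, and the groups overlapped. This single level does not separate Pdgfra RNA ended at an intronic site from full-length RNA, so a shift between them was not tested. FAP markers were high on every array, with list means of 10.78 to 10.98 over 13 genes. The labels call each pool a biological replicate, so p-values measure the spread between pools.

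Core histone genes were on the whole slightly higher in FAPs after either VMO than after control VMO, by about 0.14 on the log2 scale at the median, and no single gene passed the test. With pA-VMO, 18 of 22 members had a positive difference from control VMO and the median over all 22 was 0.14, beside a median of 0.01 over all genes tested. With 5'ss-VMO, 20 of 22 were positive with a median of 0.14, beside 0.001 over all genes tested. Of all genes tested, 55.2% had a positive difference with pA-VMO, and 50.4% did with 5'ss-VMO. Among the 17 tested members, 16 and 15 were positive in these comparisons. These comparisons share the 2 control arrays, so they are not independent of each other.

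At an adjusted p under 0.05 (limma, Benjamini-Hochberg over 14953 genes), 0 of 17 tested members were called with pA-VMO, where 0.00669% of all genes were called. With 5'ss-VMO 0 of 17 were called, where 0.582% of all genes were. Before adjustment, 7 of 17 members (41.2%) had a limma p under 0.05 and were higher with pA-VMO, against 6.22% of all genes, and 0 were lower, against 5.23%. With 5'ss-VMO the counts were again 7 higher (41.2%, against 7.72% of all genes) and 0 lower (6.19%). When the variance was modelled with a trend over expression level and robustly, H2bc14 was called with pA-VMO (adjusted p = 0.0488), and H2bc14, H4c6, H2ac4 and H2bc18 were called with 5'ss-VMO (adjusted p = 0.0152, 0.0202, 0.0421 and 0.0436). With the filter at the 50th percentile, H2bc14, H2bc18 and H4c6 were called with 5'ss-VMO (adjusted p = 0.0407, 0.0475 and 0.0494).

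Both pA-VMO arrays lay above both control arrays for 14 of 22 members and below for 2, while 24.1% of all genes tested lay above and 18.8% below. For 5'ss-VMO, 16 members lay above and 0 below, with 23.2% and 21.5% of all genes tested. Among the 17 tested members alone, 14 lay above and 1 below with pA-VMO, and 14 above and 0 below with 5'ss-VMO. Standard errors of the tested members ran between 0.0646 and 0.0988. In such bulk samples, more cells of a type or phase and more RNA per cell cannot be told apart.

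**Figure D1:**
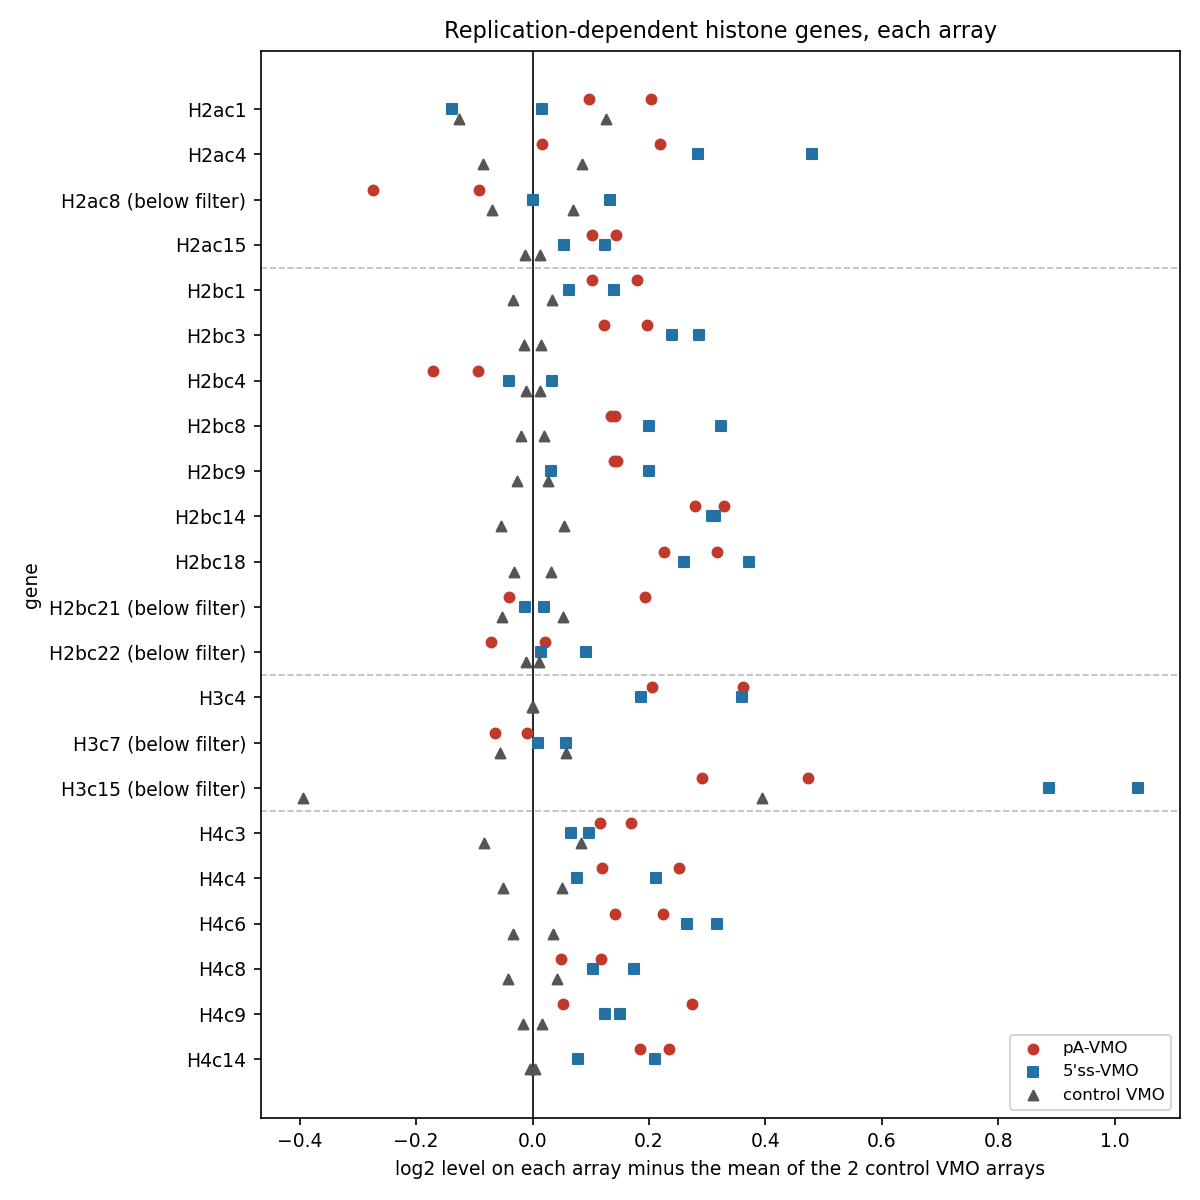
The log2 level of each of the 22 histone genes on each array, minus the mean of the 2 control VMO arrays, on the horizontal axis, with genes down the page in the classes H2A, H2B, H3 and H4 set apart by dashed lines. Circles are pA-VMO, squares 5'ss-VMO and triangles control VMO arrays; most circles and squares lie right of the triangles, H2bc4 and H2ac8 have both circles left of them, and the 5 genes marked as below the filter were not tested.

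Histone H2B, the partner of H2A in the nucleosome's dimers, had the most members and the smallest p-values. H2bc14 (chr13:21722044-21722526) read 9.08 and 9.13 in pA-VMO, 9.12 and 9.11 in 5'ss-VMO and 8.86 and 8.75 in control VMO. Both VMO groups lay above control VMO without overlap, and they overlapped each other. The difference was 0.30 with pA-VMO (SE 0.0674, adjusted p = 0.228 by limma, 1.23-fold) and 0.31 with 5'ss-VMO (adjusted p = 0.0983, 1.24-fold), the smallest adjusted p of any member in each comparison. The 95% interval of the pA-VMO difference was 0.15 to 0.46.

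H2bc18 (chr3:96269700-96270192), from the smaller cluster on chromosome 3, read 7.49 and 7.40 in pA-VMO, 7.43 and 7.54 in 5'ss-VMO and 7.14 and 7.20 in control VMO. All 4 arrays of the VMO groups were again above the control arrays. Its differences were 0.27 (SE 0.0719, adjusted p = 0.263) and 0.32 (adjusted p = 0.11) by limma. H2bc3 read 7.74 and 7.82 in pA-VMO, 7.91 and 7.86 in 5'ss-VMO and 7.61 and 7.64 in control VMO. The groups did not overlap, with 5'ss-VMO highest and control VMO lowest, and the differences from control were 0.16 (adjusted p = 0.406) and 0.26 (adjusted p = 0.144).

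H2bc8 read 5.36 and 5.36 in pA-VMO, 5.42 and 5.55 in 5'ss-VMO and 5.20 and 5.24 in control VMO. Its groups did not overlap either, but 1 control array lay below the limit on low levels. The limma differences were 0.14 (adjusted p = 0.485) and 0.26 (adjusted p = 0.161). H2bc4, the H2B member with the highest mean level of its class on this array, read 9.70 and 9.62 in pA-VMO, 9.76 and 9.83 in 5'ss-VMO and 9.78 and 9.81 in control VMO. Here the pA-VMO arrays were the lowest and did not overlap with the others, by a difference of -0.13 from control VMO (adjusted p = 0.491), whereas the 5'ss-VMO difference from control was -0.004 (adjusted p = 0.986). H2bc22, with the lowest mean of the H2B members, read 4.87 and 4.97 in pA-VMO, 4.96 and 5.04 in 5'ss-VMO and 4.93 and 4.96 in control VMO and was not tested.

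The other H2B members were H2bc1, the testis-enriched TH2B, and H2bc9, whose differences were between 0.10 and 0.14 in both comparisons with control VMO, and H2bc21, with 0.08 for pA-VMO and 0.004 for 5'ss-VMO. Over the class, 6 of 9 members had both pA-VMO arrays above both control arrays and 7 of 9 had both 5'ss-VMO arrays above them. The class medians were 0.14 and 0.12.

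H2A members were less uniform. H2ac4 (chr13:23751088-23751592) read 8.12 and 8.32 in pA-VMO, 8.39 and 8.58 in 5'ss-VMO and 8.19 and 8.02 in control VMO. The 5'ss-VMO arrays were above all others, while pA-VMO and control VMO overlapped. The difference with 5'ss-VMO was 0.38 (SE 0.0988, adjusted p = 0.157 by limma), the largest of any tested member, and with pA-VMO it was 0.12 (adjusted p = 0.691). H2ac1, the testis-enriched TH2A that shares upstream DNA with H2bc1, read 7.00 and 6.89 in pA-VMO, 6.81 and 6.65 in 5'ss-VMO and 6.66 and 6.92 in control VMO. Its control arrays spanned most of the range, and the differences were 0.15 (adjusted p = 0.59) and -0.06 (adjusted p = 0.815). H2ac15 had differences of 0.12 and 0.09 from control VMO with no overlap in either comparison.

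H2ac8, the H2A member with the lowest mean, read 2.89 and 2.71 in pA-VMO, 3.12 and 2.98 in 5'ss-VMO and 2.91 and 3.05 in control VMO. The pA-VMO arrays were lowest, without overlap, but below the limit on low levels, and the gene was not tested. The class median was 0.12 for pA-VMO and 0.08 for 5'ss-VMO, over 4 genes.

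Histone H3 had 1 tested member. H3c4 (chr13:23575763-23576266) read 6.01 and 6.17 in pA-VMO, 6.17 and 5.99 in 5'ss-VMO and 5.81 and 5.81 in control VMO. Both VMO groups lay above control VMO and overlapped each other, with differences of 0.28 (SE 0.0824, adjusted p = 0.291) and 0.27 (adjusted p = 0.213) by limma. H3c15, from the chromosome 3 cluster, read 3.26 and 3.08 in pA-VMO, 3.83 and 3.67 in 5'ss-VMO and 3.18 and 2.39 in control VMO. The 5'ss-VMO arrays were above all others, but the 2 control arrays alone differed by 0.79, and the gene lay below the limit on low levels. Its differences of 0.38 and 0.96 are the largest of all 22 members and were not tested, and without control VMO replicate 2 the pA-VMO difference was -0.01. H3c7 had the lowest mean of the H3 members, with 2.49 and 2.43 in pA-VMO, 2.50 and 2.55 in 5'ss-VMO and 2.44 and 2.55 in control VMO.

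All 6 members of histone H4, which pairs with H3 in the nucleosome's tetramer, were tested, and each had both pA-VMO arrays above both control arrays. H4c4, with the highest mean of the class, read 11.07 and 10.94 in pA-VMO, 10.89 and 11.03 in 5'ss-VMO and 10.87 and 10.77 in control VMO. Control VMO was lowest without overlap, and the limma differences were 0.19 (SE 0.0796, adjusted p = 0.421) and 0.14 (adjusted p = 0.454). H4c14 read 10.34 and 10.29 in pA-VMO, 10.18 and 10.31 in 5'ss-VMO and 10.11 and 10.10 in control VMO. Control VMO was lowest without overlap, and the differences were 0.21 (SE 0.0699, adjusted p = 0.334) and 0.14 (adjusted p = 0.398).

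H4c6 (chr13:23551286-23551668) read 9.21 and 9.13 in pA-VMO, 9.25 and 9.30 in 5'ss-VMO and 8.95 and 9.02 in control VMO. The groups did not overlap, with 5'ss-VMO highest and control VMO lowest. The differences were 0.18 (adjusted p = 0.37) and 0.29 (SE 0.0675, adjusted p = 0.116) by limma. H4c8, with the lowest mean of the class, read 6.23 and 6.16 in pA-VMO, 6.22 and 6.29 in 5'ss-VMO and 6.15 and 6.07 in control VMO, with differences of 0.08 and 0.14. H4c3 and H4c9 had differences between 0.08 and 0.16, and H4c3 was the H4 member whose 5'ss-VMO arrays overlapped with control VMO. Class medians were 0.17 for pA-VMO and 0.14 for 5'ss-VMO.

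**Figure D2:**
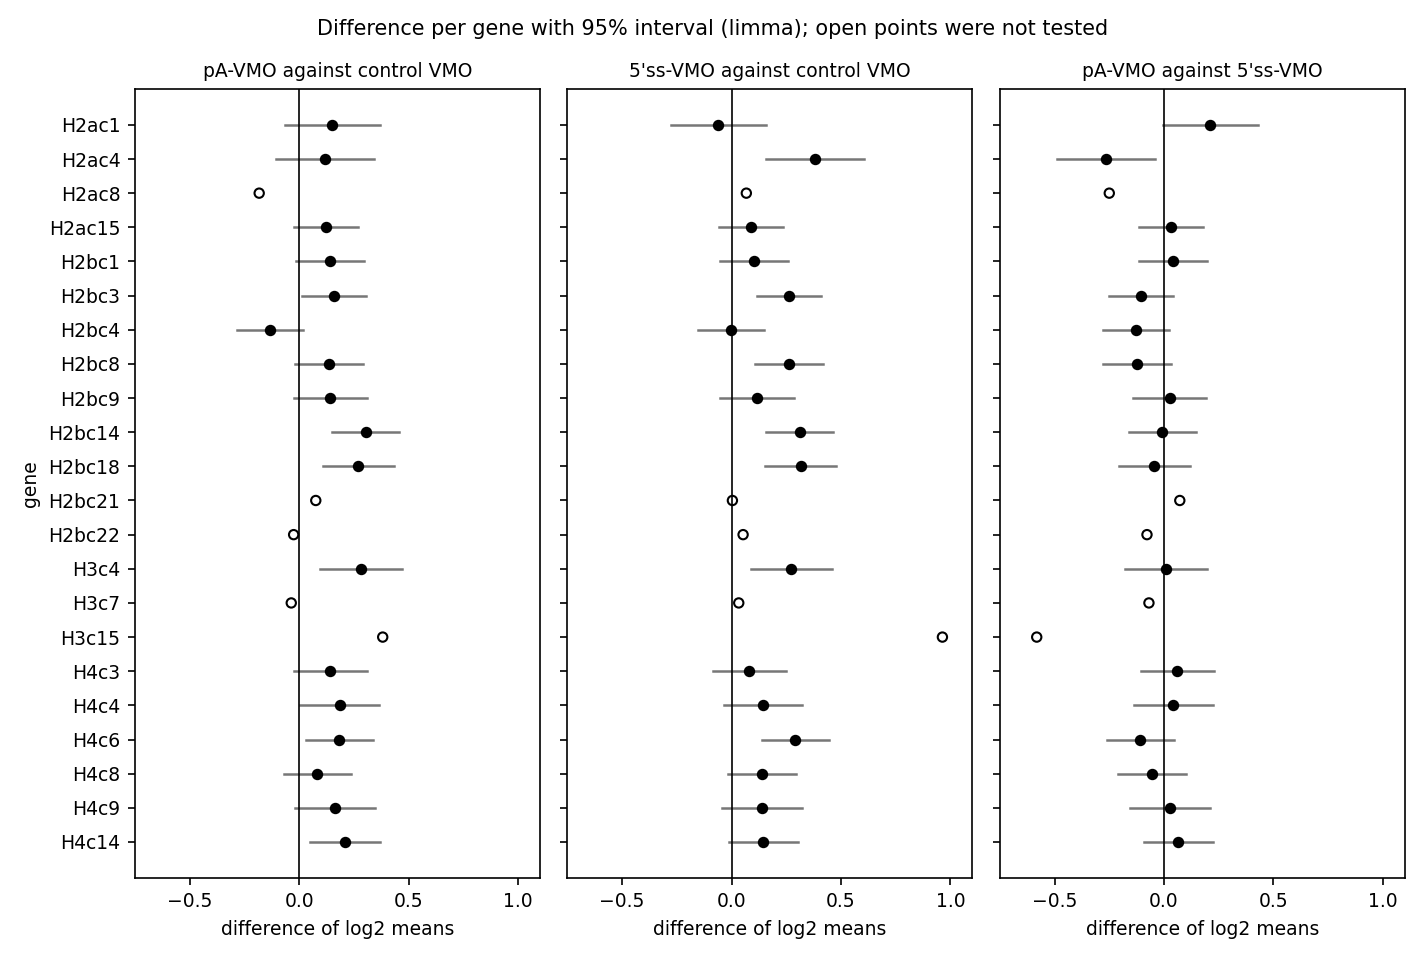
Differences of log2 means for the 22 histone genes in the 3 comparisons, 1 panel each, with 95% intervals from limma as horizontal lines. Open circles are the 5 untested genes; most points of the first and second panels lie right of the line at 0, H3c15 reaches 0.96 in the second, and points of the third lie on both sides.

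Members also differed by the span of their RefSeq gene. H2bc4, H2bc21 and H2bc22 span 2667 to 14079 bases, while the other 19 members span 375 to 903 bases, the size of a short intronless gene. With pA-VMO the 3 long genes had differences between -0.13 and 0.08, with a median of -0.03, and the 19 short genes had a median of 0.15 with 17 positive. With 5'ss-VMO the long genes lay between -0.004 and 0.05, and the short genes had a median of 0.14 with 18 positive. The split was noticed in these values and was not tested. Of the 3 long genes, H2bc4 alone was above the limit on low levels.

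Between the VMO groups, the 22 histone genes showed no common direction. For pA-VMO against 5'ss-VMO, 10 of 22 members were positive (51.4% of all genes tested), with a median of -0.03 beside 0.004 over all genes tested. Of the 17 tested members, 9 were positive. At an adjusted p under 0.05, 0 of 17 tested members were called, where 0.0602% of all genes were. At an unadjusted limma p under 0.05, 0 were higher (8.81% of all genes) and 1 was lower (7.11%). Both pA-VMO arrays lay above both 5'ss-VMO arrays for 2 members and below for 8, with 25.5% and 23.7% over all genes tested. Among the 17 tested members these counts were 2 and 5.

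The member that passed before adjustment was H2ac4, at -0.26 (95% interval -0.49 to -0.04, limma adjusted p = 0.245). The next tested differences by size were 0.21 for H2ac1 (adjusted p = 0.321), -0.13 for H2bc4 (adjusted p = 0.381), -0.12 for H2bc8 (adjusted p = 0.41), -0.11 for H4c6 (adjusted p = 0.469) and -0.10 for H2bc3 (adjusted p = 0.472). H2ac1 and H4c3 were the members with both pA-VMO arrays higher. The untested H3c15 and H2ac8 differed by -0.58 and -0.25. The remaining 14 members lay between -0.08 and 0.07, beside a median difference between replicates of 0.0804 in pA-VMO and 0.0774 in 5'ss-VMO.

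Most of the family is measured on probe sets that carry several symbols, which the rule for the 22 genes leaves out. There were 25 such probe sets with most of their symbols in the family, naming 2 to 20 genes each, and 16 of them name family genes alone. They cover 2 probe sets of H2A, 7 of H2B, 10 of H3 and 6 of H4, with 23 distinct sets of values. The 10 of H3 each name 12 genes, and their pA-VMO differences from control VMO all lay between 0.32 and 0.34. Probe sets of a class are thus not independent of each other, and counts of them are not counts of separate measurements. On these probe sets every class was higher with each VMO than with control VMO.

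For H3 the class means over probe sets were 11.18 and 11.11 in pA-VMO, 10.93 and 11.09 in 5'ss-VMO and 10.81 and 10.82 in control VMO. The 3 groups did not overlap, and the mean differences from control were 0.33 for pA-VMO and 0.20 for 5'ss-VMO. For H2A the means were 11.33 and 11.23 in pA-VMO, 11.10 and 11.24 in 5'ss-VMO and 11.04 and 11.01 in control VMO, with differences of 0.26 and 0.15. Control VMO was lowest, and pA-VMO and 5'ss-VMO overlapped.

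For H2B they were 10.72 and 10.72 in pA-VMO, 10.62 and 10.78 in 5'ss-VMO and 10.48 and 10.51 in control VMO, with differences of 0.22 and 0.20. For H4 they were 10.53 and 10.47 in pA-VMO, 10.38 and 10.51 in 5'ss-VMO and 10.25 and 10.25 in control VMO, with differences of 0.25 and 0.19. In all 4 classes the 5'ss-VMO replicates stood apart, with replicate 2 above replicate 1.

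All 25 probe sets had both arrays above both control arrays with pA-VMO, against 23.7% of 26667 probe sets tested, and all 25 did with 5'ss-VMO, against 21.6%. In a limma fit over those 26667 probe sets, 0 were called in any comparison, although 9.26% with pA-VMO, 10.7% with 5'ss-VMO and 13.4% between them had an unadjusted p under 0.05. At an unadjusted p under 0.05, 24 of the 25 were higher for pA-VMO and 15 for 5'ss-VMO, and 0 between them, while 5.01%, 6.22% and 7.26% of all probe sets were. Their adjusted p ran between 0.476 and 0.648 with pA-VMO and between 0.409 and 0.612 with 5'ss-VMO. Between the VMO groups, where the 22 genes had no common direction, 23 of the 25 probe sets were positive for pA-VMO against 5'ss-VMO, beside 52.5% of all probe sets. These were both of H2A, 6 of 7 of H2B, 10 of 10 of H3 and 5 of 6 of H4. Their mean difference was 0.08, and 10 of 25, 9 of them of H3, had both pA-VMO arrays above both 5'ss-VMO arrays, against 25.6% of all probe sets. Adding the 25 to the 22 genes moved the median difference to 0.22 with pA-VMO and to 0.20 with 5'ss-VMO. Between the VMO groups it turned the median to 0.04, or to 0.05 with the 16 probe sets that name family genes alone, against -0.03 for the 22 genes.

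**Figure D3:**
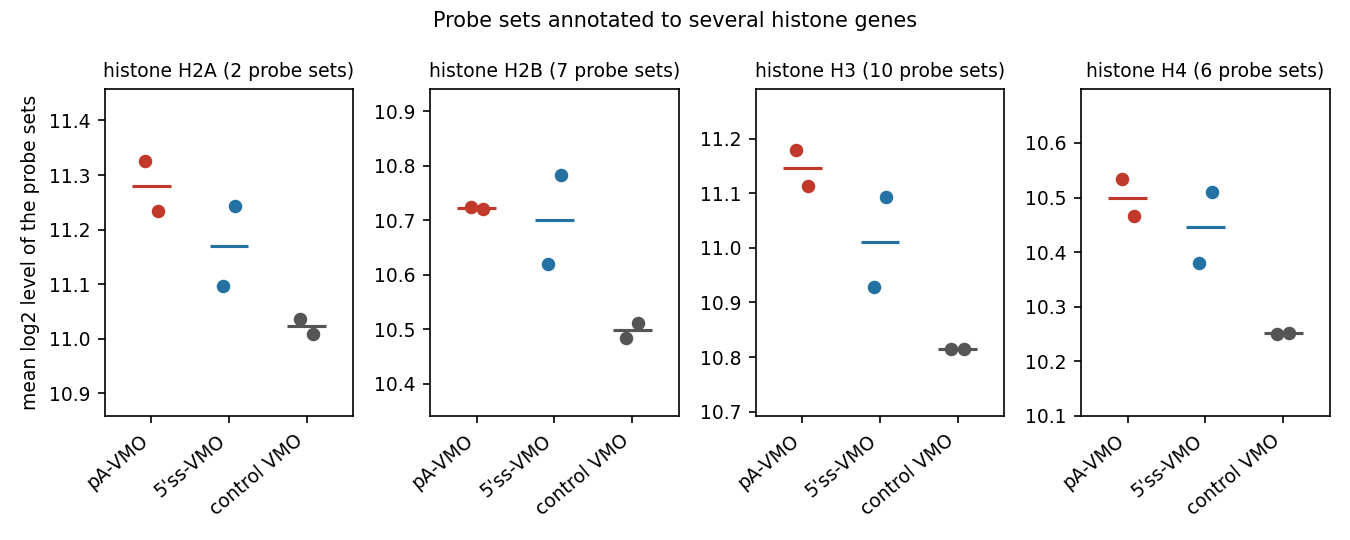
Mean log2 level of the probe sets annotated to several histone genes, per array, in a panel for each of H2A, H2B, H3 and H4; points are arrays, lines are group means, and the vertical axes do not start at 0. In every panel the control VMO points are lowest and the 5'ss-VMO points are spread the most.

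Other histones were measured beside the core family. H4f16 on chromosome 6, a replication-dependent H4 gene outside the symbol rule, differed from control by 0.10 for pA-VMO and 0.09 for 5'ss-VMO, and H2aw by 0.08 and 0.15. Of the replication-dependent linker histones, which bind DNA between nucleosomes, 0 of 3 tested were called in any comparison. H1f1 read 8.70 and 8.70 in pA-VMO, 8.62 and 8.65 in 5'ss-VMO and 8.33 and 8.43 in control VMO. Control VMO was lowest without overlap, with differences of 0.32 (limma adjusted p = 0.222) and 0.25 (adjusted p = 0.163). H1f5 differed by 0.17 in both comparisons (adjusted p = 0.42 and 0.323), and H1f2 by -0.15 and 0.06.

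Most histones of the replication-independent list are made throughout the cell cycle or replace the core histones at particular sites, and most of their messages are polyadenylated. Of 9 on the array, 6 were positive for pA-VMO and 8 for 5'ss-VMO, with medians of 0.05 and 0.04 and 0 called. H2ax, the variant phosphorylated at DNA breaks, differed by 0.18 (adjusted p = 0.42) and 0.20 (adjusted p = 0.312). Macroh2a2 read 7.54 and 7.55 in pA-VMO, 7.85 and 7.82 in 5'ss-VMO and 7.76 and 7.91 in control VMO. It was lowest in pA-VMO without overlap, by -0.29 from control VMO (adjusted p = 0.251) and by -0.29 from 5'ss-VMO (adjusted p = 0.116). The centromeric H3 variant Cenpa differed by 0.23 with pA-VMO (adjusted p = 0.344), and with 5'ss-VMO Macroh2a1 differed by 0.15 (adjusted p = 0.322) and H1f10 by -0.12 (adjusted p = 0.443).

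Genes that act in transcription and 3′ end processing of histone messages had smaller medians. Of 23, 16 were positive for pA-VMO and 20 for 5'ss-VMO, with medians of 0.05 and 0.08 and 0 called. With pA-VMO the smallest p-values were those of the cyclin Ccne2 (0.20, adjusted p = 0.329), Srrt (0.19, adjusted p = 0.405) and the processing scaffold Sympk (0.17, adjusted p = 0.445). With 5'ss-VMO they were those of Srrt (0.31, adjusted p = 0.149), the terminal uridylyltransferase Tut7 (0.25, adjusted p = 0.162) and Hinfp, a transcription factor of H4 genes (0.19, adjusted p = 0.274). Tut7 had the smallest p of the list between the VMO groups, at -0.28 (adjusted p = 0.114).

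Histone chaperones, which carry histones to DNA, had 15 of 19 members positive for pA-VMO and 16 for 5'ss-VMO, with medians of 0.11 in both and 0 called. The replicative helicase subunit Mcm2, which also binds histones H3 and H4, read 7.62 and 7.65 in pA-VMO, 7.52 and 7.69 in 5'ss-VMO and 7.37 and 7.33 in control VMO. Control VMO was lowest without overlap, by 0.29 (adjusted p = 0.251) and 0.26 (adjusted p = 0.201). With pA-VMO the next smallest p-values were those of Chaf1b, a subunit of chromatin assembly factor 1 (0.22, adjusted p = 0.288), and the importin Ipo4 (0.19, adjusted p = 0.356). With 5'ss-VMO they were those of the chaperones Nap1l4 (0.21, adjusted p = 0.208) and Rbbp4 (0.21, adjusted p = 0.257).

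DNA replication genes, which act in the phase in which these histones are made, had larger medians than the 22 histone genes. Of 27, 26 were positive with pA-VMO (median 0.21) and 27 with 5'ss-VMO (median 0.16), and 0 were called. With the 25 probe sets of several symbols added to the 22 genes, the histone medians of 0.22 and 0.20 were the larger ones. Without adjustment, 14 of the 26 tested had a limma p under 0.05 for pA-VMO and 8 of 26 for 5'ss-VMO, each higher, beside 6.22% and 7.72% of all genes tested. Mcm7, another helicase subunit, read 7.33 and 7.51 in pA-VMO, 7.02 and 7.26 in 5'ss-VMO and 6.91 and 7.01 in control VMO. The pA-VMO arrays were highest, by 0.46 over control VMO (adjusted p = 0.222). Uhrf1, which recruits the maintenance DNA methyltransferase, read 6.77 and 6.71 in pA-VMO, 6.69 and 7.11 in 5'ss-VMO and 6.50 and 6.36 in control VMO. Its 5'ss-VMO replicates differed by more than the pA-VMO arrays did from control, and the 5'ss-VMO difference was 0.47 (adjusted p = 0.157). Mcm5 differed by 0.31 with pA-VMO (adjusted p = 0.278) and the clamp loader subunit Rfc3 by 0.32 with 5'ss-VMO (adjusted p = 0.231).

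Genes of G2 and M phase, which follow S phase, had medians of 0.24 for pA-VMO and 0.25 for 5'ss-VMO, with 24 and 23 of 24 positive. The unadjusted limma p was under 0.05 for 18 and 14 of 24, each higher, beside 6.22% and 7.72% of all genes tested, and 0 were called. Mki67, the proliferation antigen Ki-67, read 8.20 and 8.31 in pA-VMO, 8.10 and 8.41 in 5'ss-VMO and 7.73 and 7.63 in control VMO. Control VMO was lowest without overlap, by 0.58 (adjusted p = 0.204) and 0.57 (adjusted p = 0.0517). The condensin subunit Ncapg differed by 0.38 (adjusted p = 0.204) and 0.33 (adjusted p = 0.102), the spindle motor Kif11 by 0.33 with pA-VMO (adjusted p = 0.243) and the kinetochore motor Cenpe by 0.42 with 5'ss-VMO (adjusted p = 0.141).

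Array means of these lists can be set beside those of the histone probe sets. The DNA replication list averaged 7.21 and 7.21 in pA-VMO, 7.10 and 7.25 in 5'ss-VMO and 7.03 and 6.99 in control VMO. The G2 and M list averaged 7.34 and 7.29 in pA-VMO, 7.17 and 7.39 in 5'ss-VMO and 7.08 and 7.02 in control VMO. In both lists 5'ss-VMO replicate 2 was above replicate 1. The 22 histone genes averaged 7.00 and 7.00 in pA-VMO, 7.04 and 7.07 in 5'ss-VMO and 6.87 and 6.87 in control VMO, with no overlap of control VMO with the others.

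**Figure D4:**
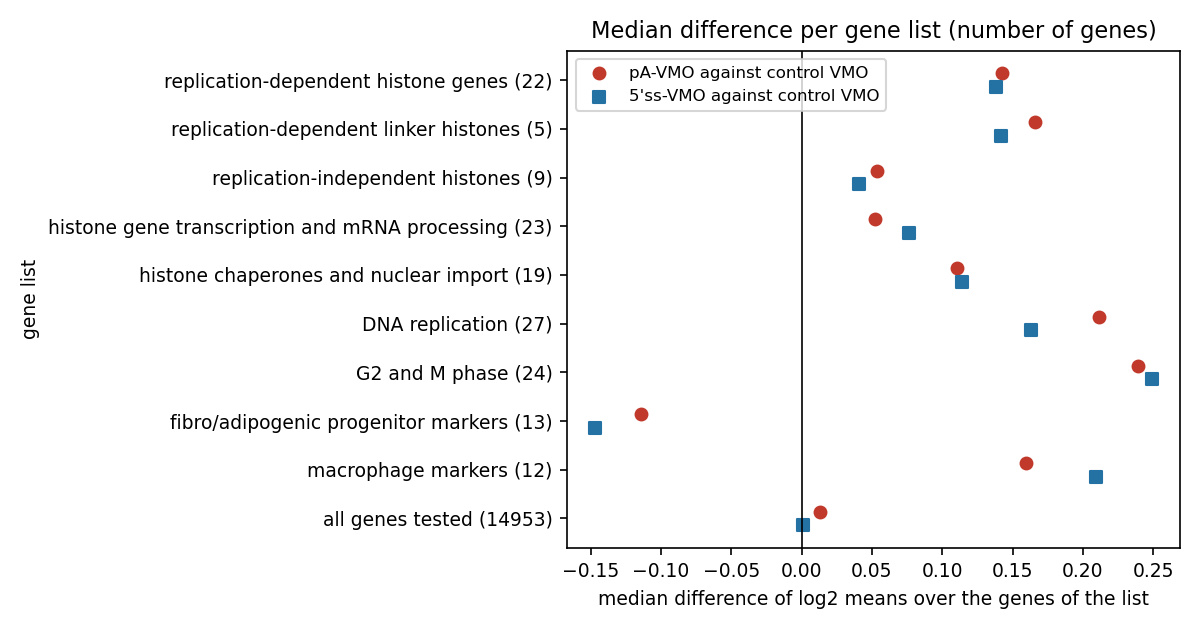
Median difference of log2 means from control VMO over the genes of each list, with the number of genes in brackets; circles are pA-VMO and squares 5'ss-VMO. The histone genes stand at 0.14 in both, the G2 and M list at 0.24 and 0.25, the FAP markers at -0.11 and -0.15 and all genes tested near 0.

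Markers of cell types also differed between these groups. FAP marker means were 10.78 and 10.83 in pA-VMO, 10.84 and 10.80 in 5'ss-VMO and 10.98 and 10.94 in control VMO, with 3 of 13 positive with pA-VMO and 2 of 13 with 5'ss-VMO. Dpp4, a marker of progenitor fibroblasts, fell with 5'ss-VMO by 0.52 (limma adjusted p = 0.032). Macrophage marker means were 6.90 and 6.88 in pA-VMO, 7.02 and 6.98 in 5'ss-VMO and 6.63 and 6.83 in control VMO, with 10 and 12 of 12 positive, and the complement genes C1qa and C1qc rose with 5'ss-VMO, by 0.39 (adjusted p = 0.047) and 0.50 (adjusted p = 0.025). By these means, control VMO was thus highest for FAP markers and lowest for macrophage markers. By the median of each list, control VMO overlapped both VMO groups for FAP markers and overlapped pA-VMO for macrophage markers. Satellite cell and myoblast markers averaged 7.22 and 7.25 in pA-VMO, 7.53 and 7.44 in 5'ss-VMO and 7.16 and 7.28 in control VMO, with 6 and 8 of 10 positive. Endothelial markers averaged 6.07 and 6.04 in pA-VMO, 6.15 and 6.14 in 5'ss-VMO and 5.81 and 6.04 in control VMO, with 6 and 5 of 8 positive. With 5'ss-VMO the other 3 endothelial markers were lower, 2 of them with both arrays below both control arrays. The acetylcholine receptor subunit Chrna1 and the endothelial cadherin Cdh5 rose with 5'ss-VMO, by 0.62 (adjusted p = 0.028) and 0.70 (adjusted p = 0.006). Beside these 5 calls, 0.582% of all genes tested were called with 5'ss-VMO. Each of these 5 calls was lost without control VMO replicate 1 (limma adjusted p between 0.0648 for Cdh5 and 0.228 for C1qa) and without control VMO replicate 2 (between 0.0512 for Cdh5 and 0.109 for Dpp4). Those of Dpp4, C1qa and C1qc were also lost without either 5'ss-VMO array (adjusted p between 0.0989 and 0.183), that of Chrna1 without 5'ss-VMO replicate 1 (0.105) and that of C1qa without either pA-VMO array (0.0779 and 0.0785). Markers of muscle fibres, lymphocytes and neutrophils had medians between -0.04 and 0.06 from control VMO, with 0 called. The part of other cells in the histone differences was not tested.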

How the data were processed

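RNA of 6 FAP pools was measured on Affymetrix Mouse 1.0 ST arrays, from 100 ng total RNA per the labels' protocols. The labels do not state how cDNA synthesis was primed. How fully histone messages without a poly(A) tail were measured is therefore not known. The authors deposited log2 values, made by RMA in Affymetrix Expression Console per the submitters' processing notes. Settings and version were not stated in the labels. Because RMA equalises the array distributions, a change in total RNA per cell cannot be seen, and it compresses differences of dim probe sets. Of 35556 probe sets, 21789 have 1 symbol in the platform annotation, 1621 several and 12146 none. All 22 members matched RefSeq gene IDs.

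The probe set with the highest mean stood for a gene, and genes with a mean under the 25th percentile (log2 5.21) were dropped. A model of the 3 groups was fitted by limma 3.58.1 (R 4.3.3; lmFit, contrasts.fit and plain eBayes) to all 6 arrays together, with 3 residual and 6.06 prior degrees of freedom. Tests were two-sided, with Benjamini-Hochberg adjustment over all genes tested. The fit was checked on simulated data whose changes were all larger than any tested histone difference. That check therefore cannot show how often differences of the size seen here would be called. An exact permutation of 2 against 2 arrays cannot go below p = 0.333. No scan dates were used here, so batches of arrays were not tested, and precision is limited by the number of arrays.

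The members and lists were chosen with earlier results of these data known, so no test over a list was made. Values on every array were given for the 8 members with the largest absolute difference in each comparison and for the members of each class with the highest and lowest mean. From each pathway list the 3 tested members with the smallest p in a comparison could be named, together with called members. The marker genes named, the 3 members with a long RefSeq span and the multi-symbol probe sets with only most of their symbols in the family were picked out afterwards.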

Additional observations from a re-analysis of the deposited data

How the results depend on the processing

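With 2 pools a group, a tested histone difference had a standard error of 0.0646 to 0.0988, and 0 passed the adjusted test. Of 22 members, 5 were too dim to test. All alternatives kept the histone medians against control VMO positive.

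The number of histone genes called with pA-VMO against control VMO was 0, and 1 with the trended, robust variance. With 5'ss-VMO it was 0, 3 with the filter at the 50th percentile and 4 with the trended, robust variance. Leaving out any array gave 0 to 0 in all 3 comparisons. Over all genes, 1 was called with pA-VMO against control VMO, 0 without a filter and 49 with the trended, robust variance, and 0 to 2 with an array left out (0 without pA-VMO replicate 1 or either control array). With 5'ss-VMO 87 were called, 24 without a filter, 181 with the filter at the 50th percentile and 265 with the trended, robust variance. With an array left out it was 8 to 76, namely 41 and 25 without 5'ss-VMO replicates 1 and 2 and 8 and 23 without control VMO replicates 1 and 2. Between the VMO groups 9 were called, 3 without a filter, 102 with the filter at the 50th percentile, 186 with the trended, robust variance, 15 with the mean of all probe sets of a gene, 111 with array medians set equal and 1 to 17 with an array left out (1 and 12 without pA-VMO replicates 1 and 2, 3 and 17 without 5'ss-VMO replicates 1 and 2).

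The histone median with pA-VMO was 0.14, and 0.24 or 0.22 with probe sets of several symbols added (all or most in the family), and 0.12 to 0.16 with an array left out. With 5'ss-VMO it was 0.14, 0.19 or 0.20 with those probe sets, and 0.10 to 0.18 with an array left out (0.18 and 0.10 without 5'ss-VMO replicates 1 and 2). Between the VMO groups it was -0.026, -0.060 with array medians set equal, 0.051 or 0.038 with those probe sets added, 0.0096 or 0.026 over members above the 25th or 50th percentile, and -0.070 to -0.015 with an array left out. Setting array medians equal turned H2bc4 to 0.0050 with 5'ss-VMO, and H2bc9 to -0.0072, H3c4 to -0.024 and H4c9 to -0.0070 between the VMO groups. The cause of these shifts was not tested.

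Leaving out an array turned the sign of some small differences. With pA-VMO against control VMO, the ranges were -0.072 to 0.022 for H2bc22, -0.041 to 0.19 for H2bc21, -0.013 to 0.78 for H3c15 and -0.093 to 0.020 for H3c7. With 5'ss-VMO they were -0.041 to 0.033 for H2bc4, -0.19 to 0.065 for H2ac1, -0.049 to 0.057 for H2bc21, -0.0017 to 0.14 for H2ac8, -0.024 to 0.089 for H3c7 and -0.0014 to 0.16 for H4c3. Between the VMO groups they were -0.058 to 0.11 for H2bc9, -0.078 to 0.10 for H3c4, -0.084 to 0.14 for H4c9, -0.032 to 0.017 for H2bc14, -0.026 to 0.11 for H4c4, -0.10 to 0.012 for H2bc18, -0.044 to 0.19 for H2bc21, -0.0010 to 0.068 for H2ac15 and -0.00090 to 0.13 for H4c14. The sign was kept under every alternative run for 18, 16 and 13 of 22 members in the 3 comparisons.

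The replicate numbers share no stated animal or batch, and deviations of same-numbered arrays correlated at -0.03, -0.10 and 0.02. The arrays were therefore not paired in the main fit. The labels do not say what the numbers stand for, and these correlations over all genes cannot exclude a batch that same-numbered arrays share. With the replicate number as a block, 1, 90 and 23 genes and 0 histone genes were called. With the pA-VMO numbers crossed, 5 genes and 0 histone genes were called against control VMO. Adding the probe sets with most, rather than all, of their symbols in the family, fitting all probe sets and crossing the numbers were chosen after seeing the data.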
